A study of Mus musculus with 15 samples.

Results

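The promoters of 10 cytokine genes were followed across all 15 ChIP-MNase libraries of the series. The genes are Il6, Tnf, Il1a, Il1b, Il12a, Il12b, Il10, Il23a, Lif and Csf1, and every row that the authors' promoter annotation gives for them was taken. This yielded 12 promoters among 25881 annotated ones, because Il12a and Lif each have a pair of annotated transcription start sites (TSSs). All 12 had a coverage score above 100, the minimum that 13559 promoters (52.4%) passed, with scores between 156 at Il6 and 712 at Il23a. The annotation does not name the samples behind the score. The study's own minimum, 100 fragments within 1 kb of the TSS in non-stimulated DC and fibroblast data, also kept 13559 promoters. The score may therefore not speak for stimulated cells.

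ChIP-MNase recovers large chromatin fragments with an antibody and digests them with micrococcal nuclease, so that the sequenced DNA is what nucleosomes protected. The cells were mouse DCs (dendritic cells), differentiated in vitro with GM-CSF from bone marrow progenitor lines, and 3T3, an immortalised mouse fibroblast line. H3K4me1 is the histone mark targeted in 12 libraries. Among these, 4 are sets in which the authors pooled 2 replicates each, namely non-stimulated DCs, DCs given LPS (100 ng/ml, 1 h), non-stimulated fibroblasts and fibroblasts given TNF-α (5 ng/ml, 1 h), and these sets carry no replicate error. The other 8 are single libraries of control and BAF-knockdown fibroblasts, non-stimulated or after TNF-α as above, with 2 replicates each. BAF is a nucleosome-remodelling complex, and the knockdown used 1 retroviral shRNA against both of its catalytic subunits, Brg1 and Brm, in cells sorted for GFP. Occupancy data cannot check the level of these mRNAs, and no other shRNA was used. A further 3 libraries come from TNF-α-stimulated fibroblasts and antibodies against pol-II phosphorylated at S7 (2 libraries) or S5 (1 library). These have paired-end reads and the H3K4me1 libraries single-end reads, so antibody and type of sequencing cannot be told apart. The study lists the control libraries as controls for the BAF knockdown, separately from the pol-II samples. Cell preparation therefore also cannot be told apart from antibody in comparisons of control with pol-II libraries.

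Cytokines are secreted signalling proteins, and inflammatory ones are held at low output in resting cells and switched on within minutes to hours by receptors such as those for LPS and TNF-α, largely through NF-kB. Promoters of active genes usually carry an NDR, a nucleosome-depleted region just upstream of the TSS, with a well-placed nucleosome at its downstream edge. Many inducible cytokine promoters lack CpG islands and have been studied as examples of genes whose activation involves nucleosome remodelling.

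The DNA just upstream of the TSS is shown for 5 of the promoters, chosen because occupancy results turn on them or, for Il1a, because of a TATA motif near the TSS, as 150 bases of mm9 ending 1 base before the TSS. Capitals mark every match, on either strand, to 8 motifs that were searched over the 300 bp upstream of all promoters. The TATA box core was TATAAA, and the motif taken for Sp1 was GGGCGG. PU.1, a factor of myeloid cells, was searched as GAGGAA. AP-1, a dimer of Fos and Jun proteins, was searched as TGANTCA. The motif of C/EBP proteins was TTGCNNAA, and that of CRE-binding factors was TGACGTCA. The motifs of NF-kB and of interferon-regulatory factors (IRF) complete the set. No searched motif is contained in another.
Tnf (chr17:35338942-35339091, minus strand): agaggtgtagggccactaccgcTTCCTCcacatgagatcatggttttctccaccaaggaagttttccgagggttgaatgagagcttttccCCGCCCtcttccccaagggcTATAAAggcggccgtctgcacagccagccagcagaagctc
Il1b (chr2:129196857-129197006, minus strand): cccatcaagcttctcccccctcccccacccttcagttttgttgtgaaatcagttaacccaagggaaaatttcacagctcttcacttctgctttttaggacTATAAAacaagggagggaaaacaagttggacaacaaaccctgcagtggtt
Il6 (chr5:30339551-30339700, plus strand): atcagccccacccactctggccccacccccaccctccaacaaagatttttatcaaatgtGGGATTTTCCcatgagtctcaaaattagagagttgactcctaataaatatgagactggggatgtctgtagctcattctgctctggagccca
Il12b (chr11:44213415-44213564, plus strand): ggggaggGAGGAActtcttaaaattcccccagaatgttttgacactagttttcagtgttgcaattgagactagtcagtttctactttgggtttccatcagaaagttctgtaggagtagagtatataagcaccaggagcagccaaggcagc
Il1a (chr2:129135709-129135858, minus strand): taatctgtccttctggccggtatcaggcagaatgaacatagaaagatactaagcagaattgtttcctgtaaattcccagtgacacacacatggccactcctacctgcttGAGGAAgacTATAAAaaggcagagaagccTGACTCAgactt

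The windows of Il6, Il12b and Il1a overlap no annotated gene of the same build. Annotated exons of Tnf and Il1b reach 11 and 19 bases into theirs, and the Il1b window also lies within the gene model Gm14047. TATAAA occurred upstream of 4 of the 12 promoters (33.3%), against 10.5% of all 13559. At 3 promoters, Tnf and Il1a among them, it lay on the gene's strand and began 20 to 40 bp before the TSS, a placement found at 25% of the cytokine promoters and 1.69% of all, and at Il1b it lay from −50 to −45 bp. The AP-1 motif was found at 5 promoters (41.7%, against 6.5% of all), and the NF-kB motif at Il6 and Csf1 (16.7%, against 1.5%). No promoter held the CRE motif (2.4% of all). The other shares were 1 of 12 for C/EBP (9.86% of all) and for IRF (3.81%), 3 of 12 for PU.1 (27.5%) and 4 of 12 for Sp1 (49.7%). CpG islands were called at 2 of 12 promoters, the downstream Il12a TSS and Csf1, against 56.1% of all promoters. A motif match is a description of the sequence and not a binding site.

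Depth is not given with these values, so the percentage of bins that hold any fragment was used in its place. Pooled sets had 82 to 90.2% of bins filled at high-coverage promoters, single libraries of H3K4me1 had 63.5 to 78.1% and those of pol-II had 69.2 to 81.2%, and occupancies stop at 20 in pooled sets and 10 in the others. The deposited expression of non-stimulated cells was checked against cell-type markers. In DCs, 12 of 13 DC markers (all but Flt3) and 5 of 10 fibroblast markers exceeded 0.02 times the mean expression, the level taken here as active. In fibroblasts, all 10 fibroblast markers and 3 of 13 DC markers did. Among 5 markers of other blood cells, 1 was active in DCs and 0 in fibroblasts.

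By the same annotation, 9 of the 12 promoters were active in non-stimulated DCs, as were 8373 of all 13559 high-coverage promoters. Il1a, Il1b and Tnf had expression above that of 99.1%, 99.1% and 98.8% of annotated promoters. The downstream Lif TSS, Il23a and Csf1 passed the DC limit of 0.0507 at 0.0587, 0.0804 and 0.117. In non-stimulated fibroblasts only Il6 was active, against 6458 of the 13559. There 5 promoters were listed at 0, those of Tnf, Il1b, Il12b and both Il12a TSSs, against 2301 of the 13559. These are bulk cultures, in which fewer cells of a type and less RNA per cell cannot be told apart, nor can a nucleosome placed alike in few cells and one placed variably in many.

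Most cytokine promoters had no clear NDR in either cell-type. The NDR ratio divides mean occupancy from −150 to 0 bp by that from −1000 to −500 bp, so that lower values mean more depletion. Its median over the 12 promoters was 0.899 in non-stimulated DCs, against 0.489 at 8373 active promoters, 0.919 at 3225 promoters without expression and 0.647 at all 13559. In non-stimulated fibroblasts the median was 0.973, against 0.395, 0.921 and 0.633. Ratios under 0.5 were found at 2 of 12 promoters (Tnf and Il1b) in non-stimulated DCs, where 40.1% of all promoters lay below this value, and at 1 (Il1b) in non-stimulated fibroblasts, against 41.7% of all. After LPS only Tnf lay below 0.5, against 42.8% of all, and after TNF-α none did in the pooled set, against 45.1%. The 10 cytokine promoters without a CpG island had a median ratio of 0.996 in non-stimulated DCs, and the 5929 such promoters among all had 0.873. Promoters of one library share its depth and digestion and are not replicates, so these medians are descriptions.

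**Figure D1:**
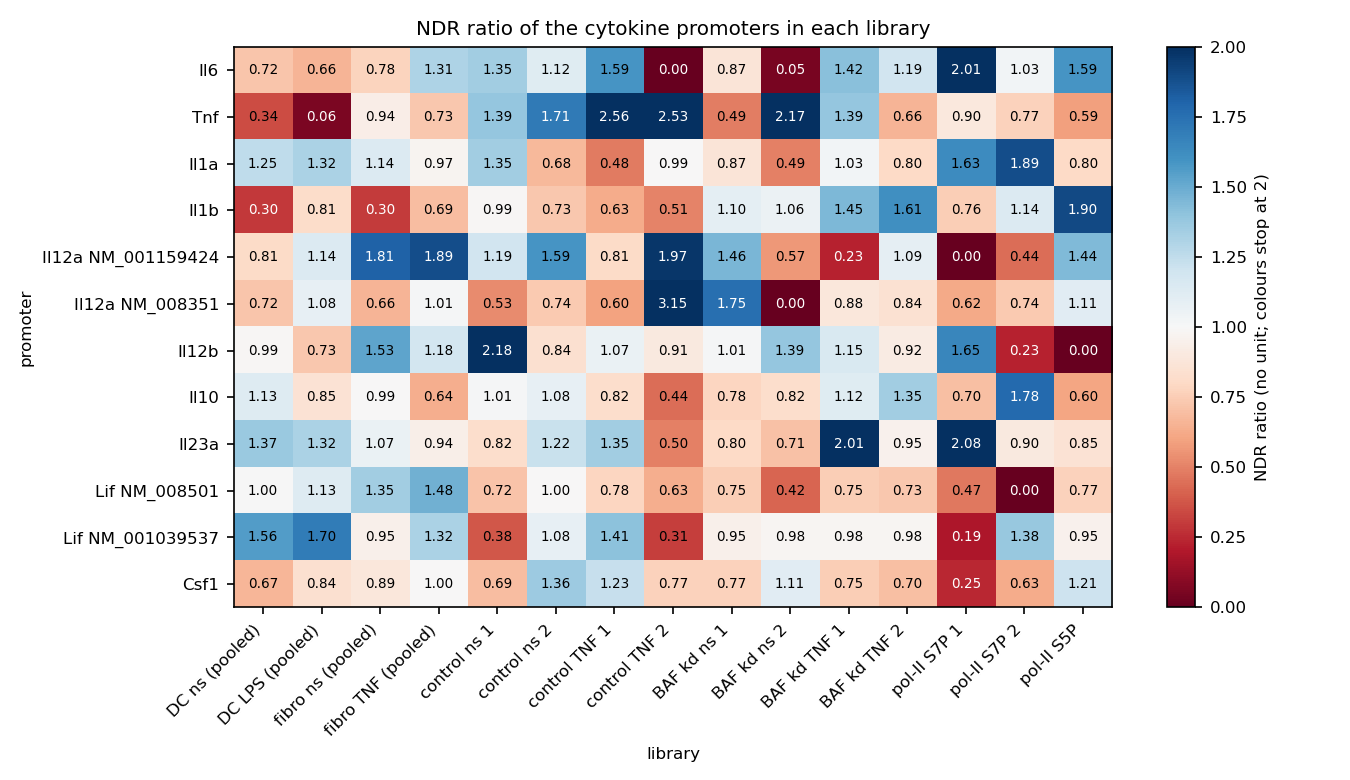
NDR ratio (no unit) of the 12 cytokine promoters (rows) in the 15 libraries (columns), with red for ratios below 1, blue for ratios above 1 and colours that stop at 2. Tnf and Il1b are the reddest rows in non-stimulated DCs (0.344 and 0.296), and single libraries scatter more widely than pooled sets.

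Tnf encodes the cytokine tumour necrosis factor, which activates NF-kB in other cells. Its NDR ratio was 0.344 in non-stimulated DCs, 0.0578 in DCs after LPS, 0.937 in non-stimulated fibroblasts and 0.728 in fibroblasts after TNF-α. The promoter was therefore more depleted in both DC sets than in both fibroblast sets. Its patterning level, which measures how closely a profile follows the mean profile of active promoters, was 27.3 in non-stimulated DCs, above that of 98% of all promoters. Its highest peak there stood at 145 bp with an occupancy of 8.74, near the peak of the mean profile of all promoters in that set (125 bp on the plus and 135 bp on the minus strand). After LPS the patterning level was 11. The 200 bp after the TSS held 17.2% of the promoter's occupancy before LPS and 0% after, the segment from 200 to 500 bp rose from 13.4% to 43.3%, and a peak of 19.2 stood at 315 bp, close to the highest value a pooled set can take. No fragment was found from 370 bp to the end of the window, a stretch of 630 bp. The share of filled bins at Tnf fell from 87% to 40.5%, far below the 86% of all promoters in that set, so occupancy relative to the surrounding 1 kb rests on few positions here. The part of this sparse filling in the profile was not tested. The correlation between the Tnf profiles before and after LPS was −0.07 over 200 bins, and 3.92% of promoters had a lower one (median of all 0.37).

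Il1b, which encodes the secreted form of interleukin 1 that inflammasomes process, had the lowest NDR ratio of the 12 promoters in both non-stimulated sets. Its ratio was 0.296 in non-stimulated DCs and 0.299 in non-stimulated fibroblasts, where the gene is listed at 0 expression. After stimulation it was 0.813 in DCs and 0.689 in fibroblasts. The depletion of Il1b was thus shallower in each stimulated pooled set than in its non-stimulated set, but the single control libraries of fibroblasts did not repeat this, with ratios of 0.989 and 0.734 before and 0.628 and 0.505 after TNF-α. In DCs a peak of 3.9 stood at −65 bp after LPS, while before LPS the nearest peak, at −55 bp, had 0.805. In fibroblasts the patterning level went from 17.2 to −3.99, and the highest peak moved from 165 bp, with 6.53, to 845 bp, with 7.11. The bin over the TATAAA match of Il1b held 0.755 in non-stimulated DCs, 2.27 after LPS, and 0 in both pooled fibroblast sets. The rise in DCs exceeded that of 90.9% of promoters at the same bin.

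Il6 encodes interleukin 6, a cytokine of fever and the acute phase that fibroblasts also make, and it was the only member active in both cell-types. Its NDR ratio was 0.722 in non-stimulated DCs, 0.659 after LPS, 0.778 in non-stimulated fibroblasts and 1.31 after TNF-α. No Il6 set came below 0.5. The patterning level in TNF-α-stimulated fibroblasts was −24.2, with 0.605% of promoters lower, and the highest peak, of 11.6, stood at 5 bp. Upstream of that peak a stretch from −250 to −70 bp held no fragment, which includes the NF-kB match at −91 to −82 bp. The bin over this match held 2.03 in non-stimulated DCs and 0.0181 after LPS, and 3.28 in non-stimulated fibroblasts and 0 after TNF-α. Occupancy at the site was thus near 0 in both stimulated pooled sets, and 6.34% of promoters in DCs and 2.26% in fibroblasts had a larger fall at the same bin. The single fibroblast libraries did not repeat this. They gave 1.25 and 0 in non-stimulated control, 0 in both stimulated control, 0 in both non-stimulated BAF-knockdown, and 0.933 and 0.435 in stimulated BAF-knockdown libraries. This site was singled out after its values had been seen.

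**Figure D2:**
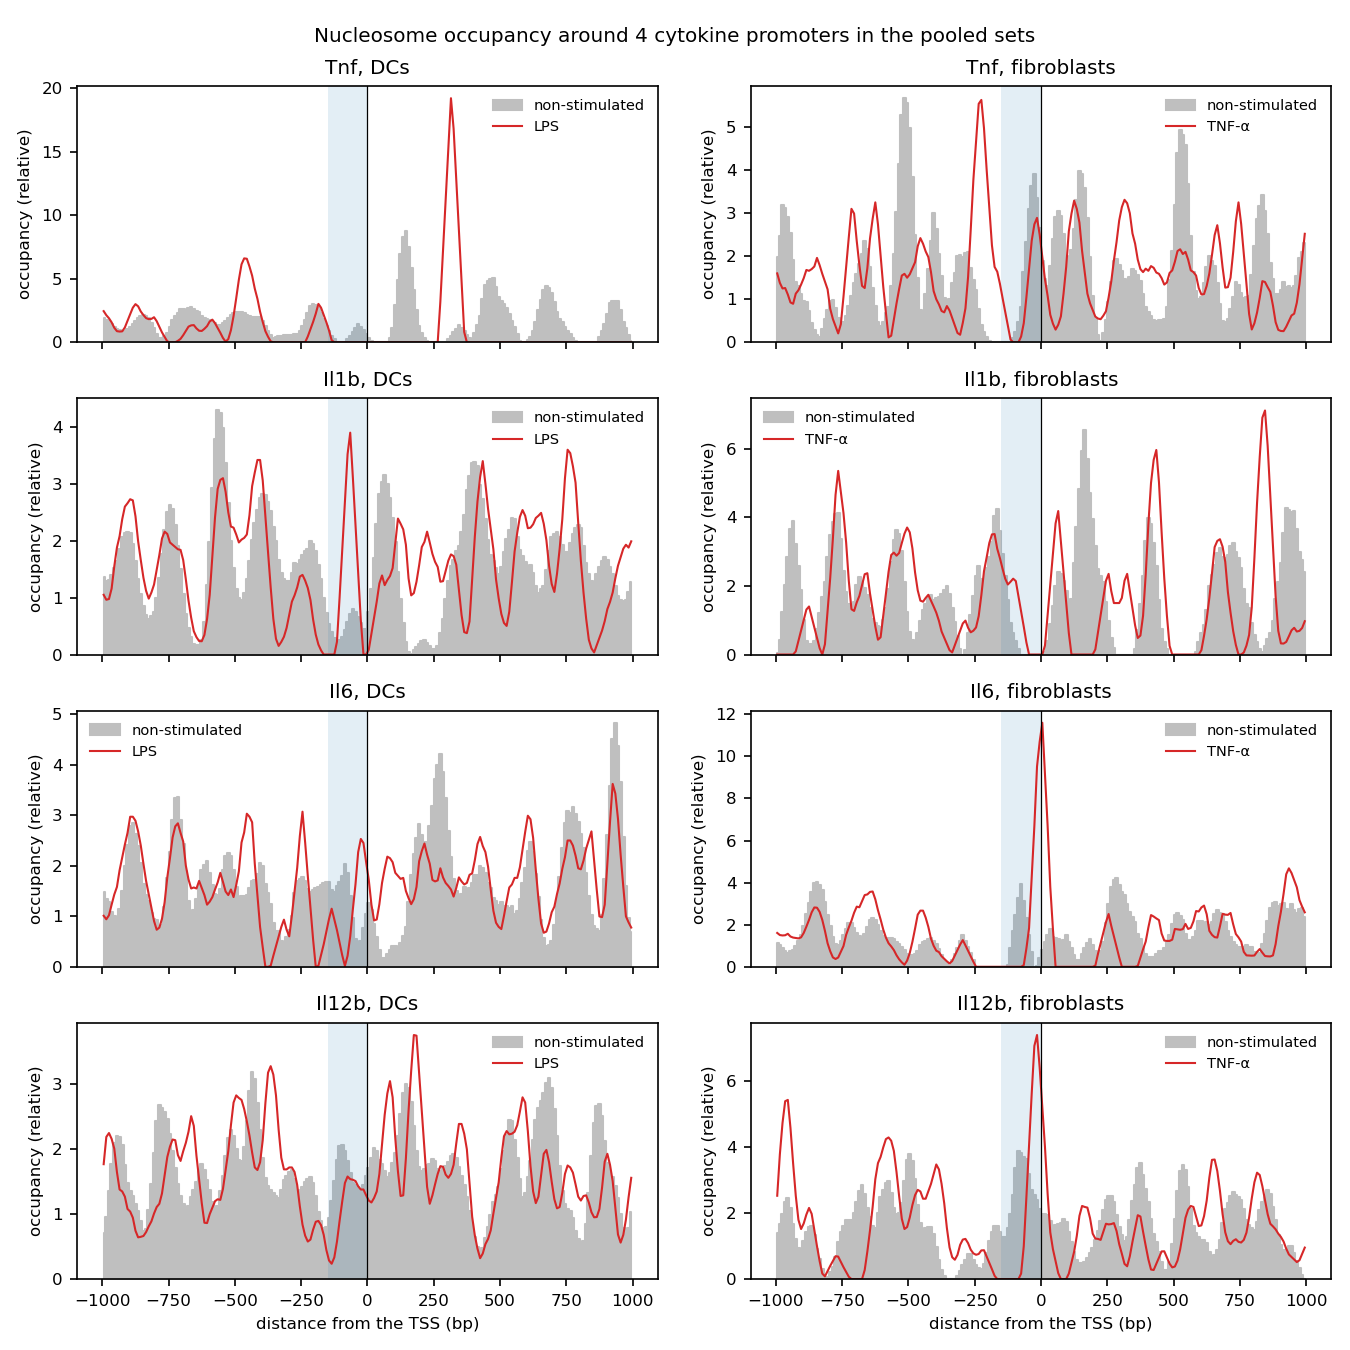
Nucleosome occupancy relative to the surrounding 1 kb (vertical axes, with their own ranges) against distance from the TSS in bp for Tnf, Il1b, Il6 and Il12b, with DCs on the left and fibroblasts on the right. Grey areas are non-stimulated and red lines stimulated pooled sets, and the blue band spans −150 to 0 bp. The Tnf peak of 19.2 at 315 bp and the Il6 peak of 11.6 at 5 bp stand above all others.

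Il12a and Il12b encode the subunits p35 and p40 of interleukin 12, and Il23a encodes the p19 subunit that joins p40 in interleukin 23. The Il12b ratio was 0.991 in non-stimulated DCs, 0.733 after LPS, 1.53 in non-stimulated fibroblasts and 1.18 after TNF-α. It was thus lower in both DC sets, though never below 0.5. The upstream Il12a TSS (NM_001159424) had ratios of 0.807 and 1.14 in DCs and of 1.81 and 1.89 in fibroblasts, non-stimulated and stimulated in this order. The TSS of Il12a 780 bp downstream (NM_008351), which was the active one in DCs, had 0.725 and 1.08 in DCs and 0.659 and 1.01 in fibroblasts. These Il12a windows share 122 of 200 bins and are not separate measurements. Il23a, with the highest coverage of all members, had 1.37 and 1.32 in DCs and 1.07 and 0.944 in fibroblasts. Its profiles showed no NDR at the annotated TSS in any pooled set.

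The remaining members are a further interleukin 1 (Il1a, also held in cells as an alarmin), the anti-inflammatory cytokine Il10, Lif of the interleukin 6 family, and Csf1, the growth factor of macrophages. Their NDR ratios in the pooled sets lay between 0.636 at Il10 in stimulated fibroblasts and 1.7 at the downstream Lif TSS in stimulated DCs. Il1a had 1.25 and 1.32 in DCs, although its expression there was among the highest of the members, and 1.14 and 0.97 in fibroblasts. The bin over its TATAAA match held 3.12 in non-stimulated and 3.98 in stimulated DCs. Il10 had 1.13 and 0.853 in DCs and 0.994 and 0.636 in fibroblasts. Csf1 had 0.665 and 0.841 in DCs and 0.89 and 0.999 in fibroblasts. The upstream Lif TSS (NM_008501) stood out for a profile shared between cell-types. Its correlation between non-stimulated DCs and fibroblasts was 0.77 over 200 bins, higher than at 99.6% of promoters (median of all 0.28), and its ratios were 1 and 1.13 in DCs and 1.35 and 1.48 in fibroblasts. The downstream Lif TSS (NM_001039537), 9527 bp away, had 1.56 and 1.7 in DCs and 0.952 and 1.32 in fibroblasts.

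Differences between pooled sets were described on the scale of log2 ratios, with 0.1 added to both parts of each ratio and a difference past 1 as the limit, without a test. Between non-stimulated DCs and fibroblasts 2 of 12 promoters passed it, when 39.2% of all promoters did. Both had the lower ratio in DCs, a direction found at 17.2% of all, with 22% in the other. They were Tnf, with a difference of −1.31, and the upstream Il12a TSS, with −1.11. LPS went with a difference past 1 at 2 of 12 promoters, against 35.9% of all. At Tnf it was −1.58 (a lower ratio after LPS, as at 21% of all), and at Il1b it was 1.29 (a higher ratio, as at 14.8% of all). With TNF-α only Il1b passed, at 1.09, against 39.2% of all in either direction and 15.8% in this one. Between the stimulated sets, Tnf alone passed, at −2.55, against 42.1% of all (17.9% lower and 24.2% higher in DCs). The shares of cytokine promoters past 1 in either direction, 8.33 to 16.7%, were thus below those of all promoters in each of these comparisons. The median coverage score of the cytokine promoters was 296, against 201 for all high-coverage promoters. The part of coverage in these shares was not tested. Of the member differences past 1, 5 were recomputed with other settings. With an NDR window from −200 to 50 bp the LPS difference was −0.18 at Tnf and 0.09 at Il1b, the TNF-α difference at Il1b was 0.63, and those between cell-types were −0.65 at Tnf and −0.76 at the upstream Il12a TSS, all within 1. The difference between the stimulated sets was not recomputed.

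The 8 single fibroblast libraries give replicate error. No cytokine promoter was called for TNF-α, when limma called 0 of 13559 promoters (0%) at an adjusted p under 0.05. At an unadjusted p under 0.05, 770 promoters (5.68%) and none of the members passed. The members' differences in patterning level were split between 6 higher and 6 lower after TNF-α, with a median of 0.041 (all promoters 0.232) and a median SE of 2.45. The lowest p was that of Tnf. Its patterning level was −5.16 and −3.94 in non-stimulated control, −14.6 and −6.74 in stimulated control, 5.68 and −1.77 in non-stimulated BAF-knockdown, and −2.55 and 0.654 in stimulated BAF-knockdown libraries. The stimulated libraries overlapped the non-stimulated ones, as at all 12 members (2.64% of all promoters had no overlap), with a difference of −4.52 ± 2.61 (SE, 4 against 4 libraries, limma adjusted p = 0.88). Without the first stimulated control library the Tnf difference was −2.61, and without the second non-stimulated knockdown library it was −6.33, with an unadjusted p under 0.05 and a limma adjusted p = 0.889. In these libraries, unlike in the pooled fibroblast sets (6.2 and 9.91), the level of Tnf was below 0 in 6 of 8. The study describes these replicates as biological ones, and p-values measure the spread between them.

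Il6 in the same libraries shows how widely single libraries scatter. Its NDR ratio was 1.35 and 1.12 in non-stimulated control, 1.59 and 0 in stimulated control, 0.873 and 0.0514 in non-stimulated BAF-knockdown, and 1.42 and 1.19 in stimulated BAF-knockdown libraries. Values at or near 0 occurred in 1 library of each of 2 pairs. In the stimulated control library with 0, all 15 bins of the NDR window were empty, within a stretch of 620 bp without fragments, and 68% of the Il6 bins were filled. Over the 8 libraries the NDR ratio ranged from 0.489 to 2.56 at Tnf (median 1.55), from 0.233 to 1.97 at the upstream Il12a TSS (median 1.14), from 0 to 3.15 at the downstream Il12a TSS (median 0.79) and from 0.419 to 0.998 at the upstream Lif TSS (median 0.742). The upstream Lif TSS was the member with a patterning level above 0 in all 8 libraries, from 0.626 to 5.43. The pooled sets did not repeat this. There its level was −2.66 and −2.42 in DCs and −2.5 and −2.49 in fibroblasts, non-stimulated and stimulated in this order.

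BAF knockdown addresses whether remodelling activity shapes these promoters. No cytokine promoter was called at an adjusted p under 0.05, as limma called 0 of 13559 (0%), and 6 members were higher and 6 lower in knockdown libraries. Il1b and Tnf were the members with an unadjusted p under 0.05, which 5.84% of all promoters had. At Il1b the patterning level was −2.04, 1.91, 0.405 and −1.08 in control libraries and −5.54, −5.24, −6.81 and −8.02 in BAF-knockdown libraries. All 4 knockdown libraries lay below all 4 control libraries, with a mean of −6.4 ± 1.27 against −0.202 ± 1.73 (SD, n = 4) and a difference of −6.2 ± 1.61 (SE, limma adjusted p = 0.821). At Tnf the control libraries, given above, had a mean of −7.62 ± 4.82 and the knockdown libraries 0.502 ± 3.71 (SD, n = 4). All 4 knockdown libraries lay above all 4 control libraries, and the difference of 8.12 ± 2.61 (SE) had a limma adjusted p = 0.821. Libraries that did not overlap, in either direction, were found at 2 of 12 cytokine promoters and at 2.97% of all promoters. The share of filled bins at Il1b was 74 to 97% in control and 82.5 to 92% in knockdown libraries, and at Tnf it was 80.5 to 92% and 72 to 88%.

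**Figure D3:**
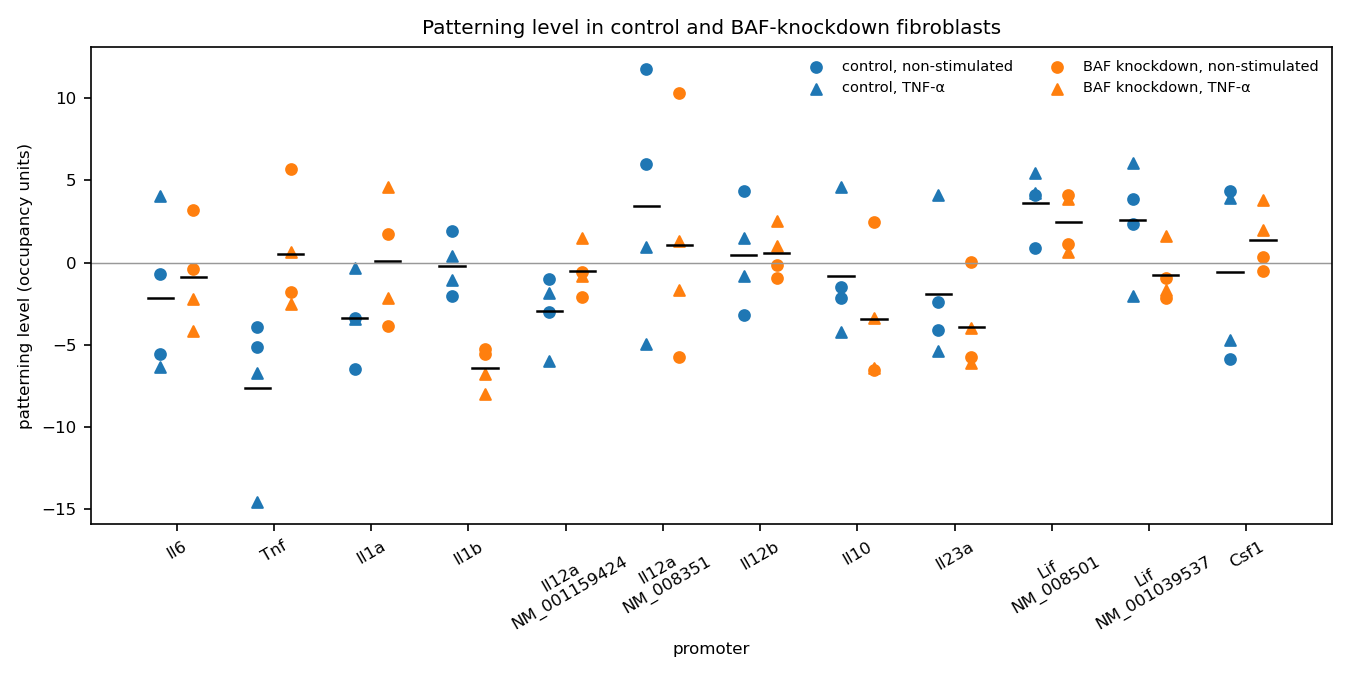
Patterning level (in units of occupancy, vertical axis) of the 12 cytokine promoters in the 8 single H3K4me1 libraries of fibroblasts, with blue for control, orange for BAF knockdown, circles for non-stimulated, triangles for TNF-α and black lines for the mean of 4 libraries. Control and knockdown libraries do not overlap at Tnf and Il1b and overlap at the 10 other promoters.

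The NDR ratios of Il1b went the same way. Their bins, and the bin over the TATAAA match, also enter the patterning level, so these are not separate evidence. The ratios were 0.989 and 0.734 in non-stimulated and 0.628 and 0.505 in stimulated control libraries. In BAF-knockdown libraries they were 1.1 and 1.06 without and 1.45 and 1.61 with stimulation. All knockdown libraries were above 1 and all control libraries below 1, a difference of 0.77 in log2 ratio (limma adjusted p = 0.922). The bin over the TATAAA match of Il1b, which was also singled out after its values had been seen, was empty in all 4 control libraries and in the first non-stimulated knockdown library, held 0.178 in the second, and held 1.08 and 1.12 in the stimulated knockdown libraries. For Tnf the ratio fell by 0.90 in log2 (limma adjusted p = 0.922). Its ratios were 1.39, 1.71, 2.56 and 2.53 in control and 0.489, 2.17, 1.39 and 0.658 in knockdown libraries, with overlap. Leaving out 1 library at a time gave differences in patterning from −7.17 to −5.58 at Il1b and from 6.22 to 9.94 at Tnf, and the latter no longer had an unadjusted p under 0.05 without the first non-stimulated (6.96) or the second stimulated (7.16) knockdown library.

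Whether the TNF-α difference depends on BAF was tested as an interaction, in which limma called 0 of 13559 promoters (0%). At an unadjusted p under 0.05, 766 promoters (5.65%) and no member passed. The lowest p among members was that of Il6, with an interaction of −6.58 ± 5.76 (SE, limma adjusted p = 0.906). Single libraries decided its size. It was −11.8 without the first and −1.4 without the second stimulated control library, and −4.14 without the second non-stimulated control library. With all libraries and square roots of occupancy it was −11.8, with an unadjusted p under 0.05 (limma adjusted p = 0.789). That value is on another scale and is not comparable in size. Its patterning level was −0.706 and −5.58 in non-stimulated and −6.35 and 4.03 in stimulated control libraries, and −0.364 and 3.18 in non-stimulated and −4.17 and −2.21 in stimulated knockdown libraries. The median SE of the members' interactions was 5.22.

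Pol-II ChIP-MNase asks how nucleosomes lie on templates that carry polymerase. Occupancy relative to the surrounding 1 kb does not show how much pol-II a promoter carried, and this was not tested. Tnf and Il1b were listed at 0 expression in non-stimulated fibroblasts. Patterning levels divided by the mean occupancy of each library were compared between the 2 S7P libraries and the 2 stimulated control H3K4me1 libraries, and limma called 0 of 13559 promoters (0%). At an unadjusted p under 0.05, 840 promoters (6.2%) passed, among them Tnf. Its scaled level was −18.3 and −8.46 in the control H3K4me1 libraries and 3.68 and 7.34 in the S7P libraries. The pooled stimulated H3K4me1 set had 6.11, between the S7P values. The difference of 18.9 ± 4.84 (SE, 2 S7P against 2 control libraries) had a limma adjusted p = 0.743. Non-overlap of libraries was found at 4 of 12 cytokine promoters (33.3%), near the 36.3% of all promoters. The NDR ratio of Tnf was 0.898 and 0.767 with S7P and 0.589 with S5P, against 2.56 and 2.53 in the H3K4me1 controls and 0.728 in the pooled stimulated set. The bin over its TATAAA match held 0.566, 0.781 and 0.523 in the pol-II libraries and 3.18, 1.16 and 2.36 in these H3K4me1 libraries, in the same order.

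**Figure D4:**
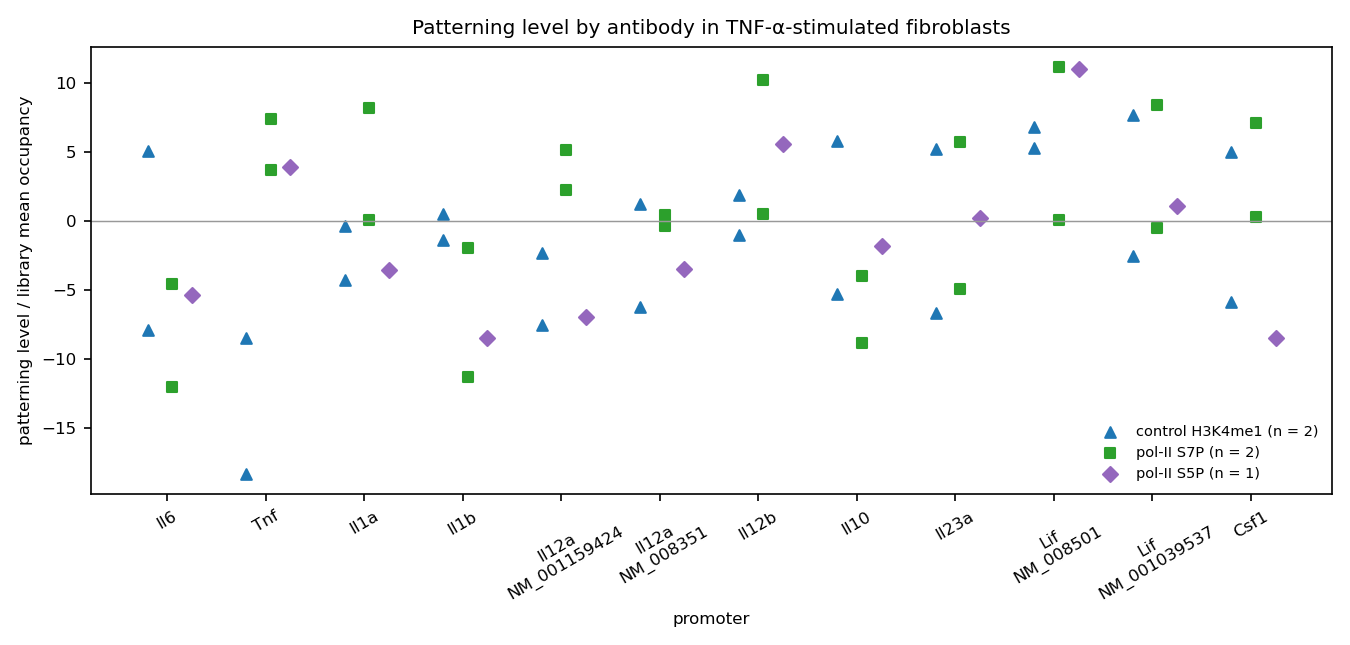
Patterning level divided by the mean occupancy of the library (no unit, vertical axis) of the 12 cytokine promoters in TNF-α-stimulated fibroblasts, with triangles for control H3K4me1, squares for pol-II S7P and diamonds for pol-II S5P. At Tnf both S7P libraries (3.68 and 7.34) lie above both control H3K4me1 libraries (−18.3 and −8.46). The pooled stimulated H3K4me1 set, which is not drawn, had 6.11 at Tnf.

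At Il1b the pol-II libraries had higher NDR ratios than the stimulated control H3K4me1 libraries of the knockdown experiment, which had 0.628 and 0.505. The pooled stimulated H3K4me1 set had 0.689. In scaled patterning level, S7P differed from these control libraries by −6.23 ± 4.59 at Il1b (SE, 2 against 2 libraries, limma adjusted p = 0.786), which was not called. Il1b had NDR ratios of 0.755 and 1.14 with S7P and 1.9 with S5P, and the bin over its TATAAA match held 1.27, 1.28 and 1.9. These pol-II values contrast with the empty bin in control and pooled H3K4me1 libraries of fibroblasts. They do not set pol-II apart from all H3K4me1 libraries, since the stimulated BAF-knockdown ones held 1.08 and 1.12 in this bin. The part of antibody, sequencing and cell preparation in the pol-II values was not tested. Against the pooled stimulated set, the S5P library had a log2 ratio difference past 1 at 2 of 12 promoters, against 48.5% of all. It was 1.37 at Il1b (29.1% of all were higher past 1) and −3.93 at Il12b (19.4% lower). Only 25% of the Il12b bins were filled in the S5P library, where its NDR window held no fragment. Coverage was also thin at the upstream Lif TSS in the first S7P library, with 21.5% of bins filled.

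The genes around these cytokines were given by 4 lists of 58 genes. Each list gene was represented only by its annotated promoter with the highest coverage score, so other TSSs of these genes are not described. The receptor list of 15 genes includes Il1rn, which encodes a receptor antagonist and not a receptor. Of these genes 12, Il1rn among them, had high-coverage promoters. Their median NDR ratio was 0.655 in non-stimulated DCs and 0.577 in non-stimulated fibroblasts. They ranged in DCs from 0.00783 at Il6ra, the ligand-binding chain of the interleukin 6 receptor, to 1.45 at Csf1r, the receptor of Csf1. Of 18 other cytokine genes 16 had high coverage, with medians of 0.993 and 0.875, and from 0 at Il11 to 1.51 at Csf2 in DCs. Ratios under 0.5 were found at 1 of these 16 promoters in non-stimulated DCs (6.25%, against 40.1% of all) and at 3 (18.8%) in each of the other pooled sets, against 41.7 to 45.1% of all. The 10 of 18 transcription factors with high coverage had medians of 0.567 and 0.511, from 0 at Irf3 to 1.34 at Nfkb2. The 5 of 7 regulators of mRNA decay and signalling had 0.218 and 0.297, with 0.00464 at Zfp36, whose protein destabilises Tnf mRNA, and 0.956 at Tnfaip3, an inhibitor of NF-kB signalling. CpG islands were called at 33.3% of the receptor list, 12.5% of the other cytokines, 90% of the factors and 80% of the regulators. In the limma tests of TNF-α, BAF knockdown, their interaction and S7P, 0 genes of each list were called. An unadjusted p under 0.05 was found at 2 other cytokines and 1 regulator for TNF-α, at 1 receptor and 1 other cytokine for BAF knockdown, at 1 factor for the interaction, and at 1 receptor and 2 factors for S7P.

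Over the 15 libraries, scaled patterning levels of each member were correlated with those of all other promoters, as a description over libraries that differ in depth, cell-type and antibody. For Tnf the highest values were those of Foxp1 (r = 0.84), Cbfa2t2 (0.80) and Syt11 (0.80). For Il1b they were those of Mbnl1 (0.82), Zfp992 (0.82) and Adam1b (0.80), and for Il6 those of Rab11fip2, Apol6 and Cox6b2 (0.80 each). The highest for any member was Vezt with the downstream Lif TSS, at 0.90. The 3 highest values of every member lay between 0.78 and 0.90, among about 13471 candidates over 15 libraries.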

How the data were processed

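The authors aligned MNase-digested ChIP reads to mm9 (Bowtie2 2 and bedtools in the submitters' processing notes) and deposited, per library, a nucleosome signal in 10 bp bins from −1000 to 1000 bp around RefSeq TSSs: fragments relative to those in the surrounding 1 kb, as means of overlapping 50 bp bins. The deposited promoter annotation holds a coverage score and expression signal before stimulation. The study measured expression by RNA-seq in FPKM, but these columns carry no unit and their means differ between cell-types (2.54 in DCs and 79.8 in fibroblasts), so that levels were compared within a cell-type only. Its columns of the authors' own expression differences upon stimulation were not used. Rows of the matrices carry no names and were matched to the annotation by order, which was checked against coverage and strand.

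Symbols came from RefSeq accessions (96.3% of 25881) or, for 688 rows including Il12b, from a same-build TSS within 50 bp. Members, lists and tests were chosen with earlier results of these data known. Motifs were searched in the mm9 genome, and a CpG island needed 50% GC and an observed over expected CpG of 0.6 over 200 bp on each side of the TSS. The patterning level is the sum, over bins, of centred occupancy times the centred mean profile of active promoters in the non-stimulated pooled set of the same cell-type. It was tested with limma 3.58.1 in R 4.3.3 over 13559 promoters with a score above 100, with Benjamini-Hochberg adjustment at 0.05, after tests on simulated data. Named were all members, the 3 most alike promoters of a member, and the list genes with the highest and lowest NDR ratio in non-stimulated DCs. Alternatives changed scaling, transformation, measure, coverage minimum, template, windows, pseudocount and libraries.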

Additional observations from a re-analysis of the deposited data

How the results depend on the processing

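In the limma tests of TNF-α, BAF knockdown, their interaction and S7P, 0 promoters were called with every alternative, except that 1, which was no cytokine promoter, was called for BAF knockdown with a coverage score above 200. Leaving out 1 library at a time gave 0 to 0 calls. The replicate numbers do not pair the samples (correlations of deviations of 0.00 to 0.01), and the replicate block gave 0 calls in each test. The members' differences took the other sign in 68 of 678 values over all alternatives. The difference of Il1b with BAF knockdown had an unadjusted p under 0.05 in 16 of 16 alternatives (limma adjusted p 0.683 to 0.922), that of Tnf in 12 of 16 (0.746 to 0.922), and that of Tnf with S7P in 7 of 9 (0.427 to 0.998, differences of 14 to 23.8 without 1 library).

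Counts past 1 in log2 NDR ratio between pooled sets depended on window and pseudocount. The 5 cytokine calls over the 3 comparisons became 2 with the window from −200 to 50 bp and 0 with a pseudocount of 0.5. Between non-stimulated cell-types the members called were 0 with either, and all promoters called were 3394 and 3114 in place of 5321. For LPS the members were 0 with either, and all promoters 3122 and 2864 in place of 4864. For TNF-α the wider window gave 2 of 12 members, Il6 (1.25) and the downstream Il12a TSS (1.24), and 3707 of 13559 promoters in place of 5310. The whole window as reference gave 0 members, with Il1b at 0.98, and 5164 promoters. The pseudocount of 0.5 gave 0 members and 3199 promoters. A larger pseudocount shrinks log2 ratios by construction, and the cause of the change with the window was not tested. Single libraries had 63.5 to 78.1% of bins filled, so that NDR windows of 15 bins could be empty, and fragment counts behind these values are unknown.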
